A study of Arabidopsis thaliana with 6 samples.

Results

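Of 28775 annotated features, 9 genes had at least 8 RPKM (a read count divided by gene model length and by sequencing depth) in both seedling and both root libraries and under 1 RPKM in both floral bud libraries. The genes were chosen by the RPKM values themselves, so the low bud level is a description and was not tested. The genes were JAL22, JAL33, XTH31, LSU1, RAV2 (also called TEM2), RAP2.7 (also called TOE1), AT3G20370, AT5G59540 and AT1G68238. They are 0.113% of the 7986 features with at least 8 RPKM in all 4 seedling and root libraries. The reverse pattern, at least 8 RPKM in both buds and under 1 in all 4 seedling and root libraries, was met by 548 features.

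The libraries were made from polyadenylated RNA of the Arabidopsis thaliana accessions Col-0, the source of the reference genome, and Can-0, which comes from the Canary Islands. No group carried a transgene, a mutation or a treatment. Seedlings were 11 days old and roots 10 days old, and buds were taken at flower stage 12. Seedlings and bud plants stood on soil and root plants on plates, with days of 16 hours light and 8 hours dark at 20 C. There were 6 libraries, 1 for every combination of accession and tissue, so no group was replicated. Tissue cannot be told apart from sequencing run (seedlings in run 33, roots in run 40, buds in runs 36 and 35), nor root from growth on plates. In bud the accession cannot be told apart from run either, since the Col-0 bud was in run 36 and the Can-0 bud in run 35. Low values of genes with 1 annotated transcript peaked at multiples of 1 read, which gave an estimated depth of 21800000 to 22900000 mapped reads per library. Not all such values lay there. Of those up to 20 reads, 43.9% (Col-0 seedling) to 55.7% (Can-0 bud) came within 0.1 of a whole read. Tissue labels were set against markers. The 5 root markers summed to 155 and 139 RPKM in the roots of Col-0 and Can-0, 0.839 and 0.791 in the buds and 0.194 and 0.341 in the seedlings, and PRP3, CASP1 and PLT2 were at 0 in both buds. The 8 floral organ identity genes summed to 1083 and 1324 RPKM in the buds and to at most 8.84 elsewhere. The 5 seedling shoot markers summed to 9584 RPKM or more in seedlings and to 14.6 or less in roots, and to 4209 and 3498 in the buds, which hold green sepals. Of the 4 pollen and tapetum markers, only VGD1 was clearly highest in the buds, at 465 and 593 RPKM. AMS had 0.879 and 2.27 in the buds and 4.22 in the Can-0 root, TDF1 stayed under 0.1 RPKM, and A9 was listed at 0 in all 6 libraries.

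AT3G20370, AT5G59540 and AT1G68238 have no established role, and the families of the other 6 genes are described here. Jacalin-related lectins bind sugars, and several of them gather with the beta-glucosidase PYK10 when a cell is broken; PYK10 is stored in ER bodies, compartments of the endoplasmic reticulum that Brassicaceae keep in roots and seedlings. TOE1 and TEM2 are transcription factors that delay flowering by repressing the florigen gene FT, and the microRNA miR172 lowers the output of TOE1 and its AP2-like relatives as plants age. LSU proteins accumulate when sulfate is short, and XTH enzymes cut and rejoin xyloglucan in the growing cell wall.

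JAL22, JAL33 and AT3G20370 form the group with the highest root levels, and the 250 bases upstream of each start are shown because these genes differed together between seedling and root. The sequences are RefSeq's for TAIR10.1, read toward the gene. JAL22 lies at chr2:16414034-16416845 on the minus strand and its upstream window at chr2:16416846-16417095; JAL33 lies at chr3:5588292-5590085 on the plus strand with its window at chr3:5588042-5588291; AT3G20370 lies at chr3:7105371-7107389 on the plus strand with its window at chr3:7105121-7105370. Capitals mark sequence matches, with positions counted from the gene start. JAL22 has an evening element at -169 to -162, and JAL33 has TATAAA at -191 to -186. AT3G20370 has TATAAA at -229 to -224 and then a W-box at -136 to -131, both read on the other strand. Whether any match works as a promoter element was not tested.
JAL22: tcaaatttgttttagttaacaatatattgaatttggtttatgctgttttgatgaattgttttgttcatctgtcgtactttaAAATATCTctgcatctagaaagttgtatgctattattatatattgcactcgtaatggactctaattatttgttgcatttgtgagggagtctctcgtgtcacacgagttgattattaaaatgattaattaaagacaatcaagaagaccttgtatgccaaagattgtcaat
JAL33: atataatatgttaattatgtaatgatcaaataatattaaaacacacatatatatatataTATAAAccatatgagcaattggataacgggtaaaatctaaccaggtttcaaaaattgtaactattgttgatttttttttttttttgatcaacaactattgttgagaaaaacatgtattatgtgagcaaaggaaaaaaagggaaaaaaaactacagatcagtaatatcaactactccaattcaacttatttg
AT3G20370: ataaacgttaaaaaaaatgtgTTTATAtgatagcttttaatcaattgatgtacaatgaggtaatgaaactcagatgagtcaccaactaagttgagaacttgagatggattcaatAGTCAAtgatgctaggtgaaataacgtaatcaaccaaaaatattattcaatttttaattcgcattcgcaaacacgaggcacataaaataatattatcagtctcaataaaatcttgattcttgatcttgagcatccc

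Windows of this kind were searched on both strands in all 9 genes and in 26709 promoters. A W-box (TTGACC or TTGACT, the core bound by WRKY factors) was in 4 of the 9 windows (RAV2, TOE1, AT3G20370 and AT5G59540) and in 28.5% of all promoters. TATAAA was in 4 of 9 (JAL33, AT3G20370, XTH31 and LSU1) and in 47.7% of all. The evening element AAATATCT was in JAL22 alone among the 9 and in 4.84% of all, CCGAC in TOE1 alone and in 11.9%, TGGGCC in XTH31 alone and in 13.9%, and a CArG box in TOE1 alone and in 2.55%. CACGTG (6.58% of all), the telo-box (4.44%) and the GAGA repeat (4.87%) were in none of the 9 windows. AT1G68238 held none of the motifs searched, so no motif was common to the 9 genes.

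**Figure D1:**
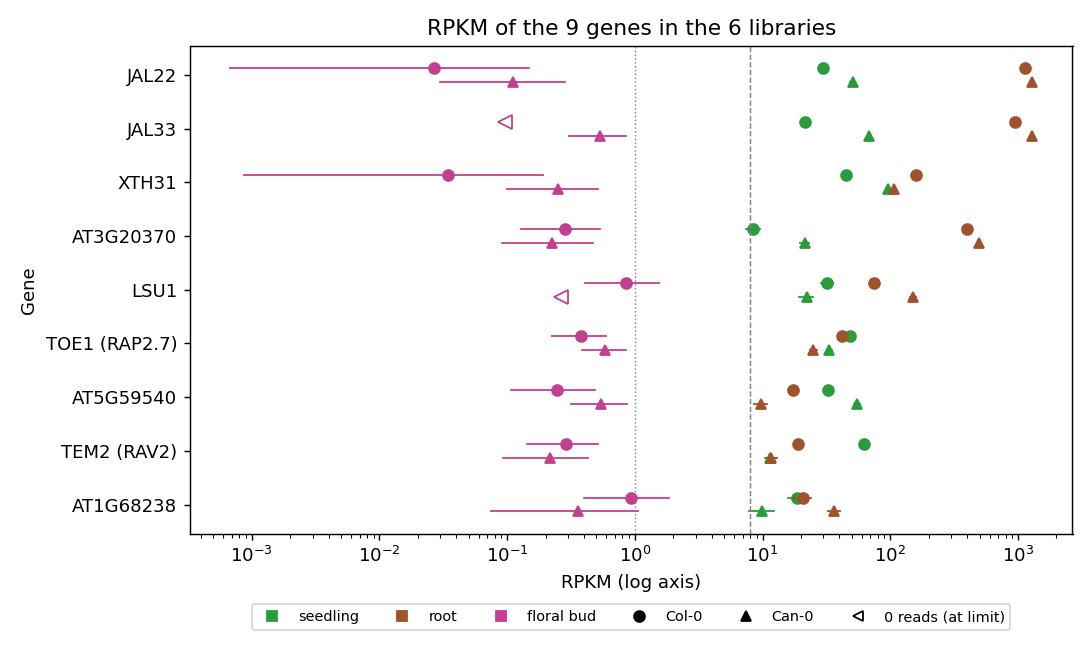
RPKM on a log axis of each gene in the 6 libraries, coloured by tissue, with circles for Col-0 and triangles for Can-0; lines are exact 95% Poisson intervals of the reads, and open triangles mark 0 reads at the limit of 3 reads. The dashed line is 8 RPKM and the dotted line 1 RPKM; all bud values lie left of the dotted line, and root values of JAL22 and JAL33 reach 947 to 1284 RPKM.

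Both lectins were at 947 RPKM or more in root and at 0 to 16 reads in bud. JAL22 had 30.02 RPKM in Col-0 seedling, 1134 in root and 0.0267 in bud, and in Can-0 51.0, 1279.8 and 0.110. Its bud values rest on 1 read in Col-0 and 4 in Can-0, against 42074 and 48014 reads in the roots. Every root value was thus above every seedling value, and the lowest seedling value was 272-fold above the higher bud value, the widest gap of the 9 genes. In bulk tissue fewer cells of a type and less RNA per cell cannot be told apart.

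JAL33 had 21.6, 947 and 0 RPKM in seedling, root and bud of Col-0, and 68.2, 1284 and 0.530 in those of Can-0. A count of 0 in the Col-0 bud allows up to 0.0962 RPKM (3 reads), so the lowest vegetative value was at least 224-fold higher. Against the higher bud value, that of Can-0, it was 40.7-fold higher. The Can-0 bud value, 16 reads, has an exact 95% interval of 0.303 to 0.860 RPKM and lies above the Col-0 limit. These intervals and limits cover counting error only.

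Bud values were higher in Can-0 for 5 of the 9 genes and higher in Col-0 for 4. Of 7 jacalin-related lectins, listed after the 9 genes were known, 7 were higher in the Can-0 bud. JAL22 and JAL33, whose bud values the selection used, are 2 of those 7. Of 9 ER body genes, 3 of them lectins of the first list and JAL22 among them, 7 were higher in the Can-0 bud. The same held for 55.2% of all features above 0 in either bud. Each count compares 1 library with 1, in buds from different sequencing runs, and was not tested. The list of 7 is a choice of lectins and leaves out MLP-300B, whose transcript is the closest to that of JAL33. JAL30 (PBP1, which binds PYK10) had 0.0988 and 1.22 RPKM in the buds of Col-0 and Can-0, JAL34 had 0.0349 and 2.11, PYK10 0.0242 and 2.98, and NAI2, an ER body protein, 0.867 and 5.02. As a share of the root value of the same accession, PYK10 in bud was 0.000235% in Col-0 and 0.0233% in Can-0, and JAL33 0% and 0.0412%. Of the 5 root markers, 3 were at 0 in both buds, PIN2 had 0.839 RPKM in the Col-0 and 0.433 in the Can-0 bud, and COBL9 had 0 and 0.357; the part of root RNA in these bud values was not tested. JAL30, JAL34, PYK10 and NAI2 met the bounds in Col-0 and missed them through the Can-0 bud alone.

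Other lectins were high in bud. JAL23 lies 2637 bases from JAL22 with 1 gene between them, and their transcripts are 85.4% identical over 1476 aligned bases. JAL23 had 4.31, 0.0545 and 170.0 RPKM in seedling, root and bud of Col-0 and 6.26, 0.620 and 191.6 in Can-0, so it was highest where JAL22 was lowest. On chromosome 3, JAL33 lies between MLP-300B, with 57.0 and 68.7 RPKM in root and at most 0.525 elsewhere, and JAL34, with 1658 and 2038 RPKM in root. The next gene, JAL35 (JR1), had 286 and 364 RPKM in the buds, above its 235 and 272 in the roots. JAL34 and JAL35 lie side by side on opposite strands and share 631 identical bases in RefSeq transcripts, in a search of both strands. Whether these are the same genomic bases was not tested, and how reads there were counted is not given in the sources used here. None of the 9 genes has a near-identical copy, taken as a transcript of 95% identity or higher across 50% or more of the length.

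AT3G20370, a TRAF-like protein of unknown role, had the same order of tissues as the lectins. It had 8.45 RPKM in Col-0 seedling, 398 in root and 0.282 in bud, and in Can-0 21.4, 492 and 0.227. The Col-0 seedling value is the lowest of all vegetative values of the 9 genes and lies just over the bound of 8. Its neighbour AT3G20380, also TRAF-like, had 6.24 and 3.76 RPKM in root and at most 0.135 elsewhere. Among 45 TRAF-like genes, 30 were under 1 RPKM in both buds, 22 of them in all 6 libraries, while 5 had at least 8 RPKM in both buds. Over all 28775 features, 9141 were under 1 RPKM in both buds. AT5G26280 reached 603 and 1740.3 RPKM in the roots but 0.0354 and 1.87 in the buds, and missed the bounds also through its seedling values of 6.69 and 6.57.

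Whether the 9 genes differed between seedling and root was tested, since the selection set no direction there. Log2(RPKM + 1) was fitted with limma on all 6 libraries with terms for tissue and accession, over 20830 genes that reached 1 RPKM in 2 or more libraries, at a Benjamini-Hochberg adjusted p under 0.05. With 1 library per group the spread is how far the accessions differ in their tissue differences, on 2 residual degrees of freedom. The bud values of the 9 genes, which the selection held under 1, enter that spread. Of the 9 genes 5 were called, while 59.5% of all genes tested were, so the share is near the background. Higher in root were 4 of the 9 (41.0% of all genes) and higher in seedling 1 of the 9 (18.5% of all). With the seedling and root libraries alone, free of the bud values, limma called the same 5 among 11202 of 19271 genes. The median difference, seedling minus root, was -0.98 over the 9 genes and -0.33 over all genes tested. With median-centring the calls over all genes split into 4818 higher in seedling and 6135 higher in root, and with quantile normalization into 4851 and 6430, against 3849 and 8549 without; the median over all genes moved to -0.06 and -0.08, and the same 5 of the 9 were called in the same direction.

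The lectins and AT3G20370 had the largest differences. Seedling minus root was -4.91 (SE 0.19) for JAL22 with an adjusted p of 0.000142 in limma. For JAL33 it was -4.80 (SE 0.31, limma adjusted p 0.00046) and for AT3G20370 -4.93 (SE 0.33, limma adjusted p 0.000508). In all 3 both roots were above both seedlings, as in 52.7% of all genes tested. Of the 7 jacalin-related lectins on the list above 6 were higher in root, JAL23 was higher in seedling, and all were called by limma, with a median of -4.74. Of the 9 ER body genes, which include JAL22, JAL23 and PBP1, limma called 7 higher in root and 2 higher in seedling. Those 2 were JAL23 and BGLU18, the beta-glucosidase of leaf ER bodies, with seedling levels of 84.0 and 271 RPKM, root levels of 0.527 and 3.79 and bud levels of 1289 and 1618. PYK10 had 166 and 223 RPKM in seedling against 10330.3 and 12774 in root.

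**Figure D2:**
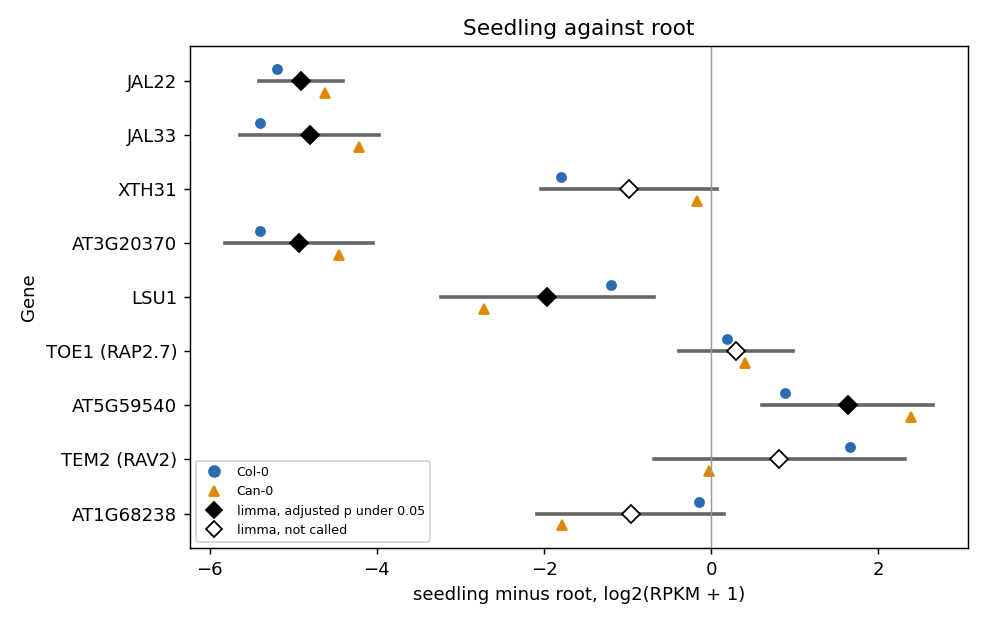
Seedling minus root on the log2(RPKM + 1) scale for each gene. Circles are Col-0 and triangles Can-0, and diamonds with lines are limma estimates with 95% intervals, filled where the adjusted p was under 0.05. JAL22, JAL33 and AT3G20370 lie between -5.40 and -4.21 in both accessions, while TOE1 lies at 0.19 and 0.40.

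TOE1 was at a like level in both vegetative tissues. It lies at chr2:12225656-12228624 on the minus strand. It had 48.2 RPKM in Col-0 seedling, 42.1 in root and 0.378 in bud, and in Can-0 33.4, 25.0 and 0.585. Seedling was above root in both accessions by less than the accessions differed, and seedling minus root was 0.30 (95% interval -0.38 to 0.98; limma adjusted p 0.373); it was 0.012 (limma adjusted p 0.98) without the Can-0 root. The bud values rest on 18 and 27 reads.

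The site at which miR172 pairs with TOE1 is shown with those of its relatives, because TOE1 was the only 1 of these 6 AP2-like genes under 1 RPKM in both buds. Mature miR172a (chr2:11942918-11942938, minus strand) is written in the DNA letters of the genome with its seed, bases 2 to 8, in capitals. In the sites, capitals mark bases that form Watson-Crick pairs (A with U, G with C) with miR172a. The TOE1 site is at chr2:12226233-12226253 on the minus strand, the TOE2 site at chr5:24210889-24210909 on the plus strand, the AP2 site at chr4:17403019-17403039 on the plus strand and the SNZ site at chr2:16389066-16389086 on the minus strand.
miR172a: aGAATCTTgatgatgctgcat
TOE1: caGCAGCATCATCAgGATTCT
TOE2: ATGCAGCATCATCAgGATTCT
AP2: cTGCAGCATCATCAgGATTCT
SNZ: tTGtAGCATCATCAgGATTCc

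The TOE1 site forms Watson-Crick pairs with miR172a at 18 of 21 bases, as do those of TOE3 and SMZ. TOE2 has 20, AP2 19 and SNZ 17. Pairs of G with U were counted as unpaired, and other miR172 forms were not compared, so the order holds for this count only. The TOE1 site lies in the coding sequence of 3 of TOE1's 6 RefSeq coding transcripts and in an untranslated exon part of the other 3. Bud levels of the relatives were 8.35 and 11.5 RPKM for TOE2, 19.8 and 19.7 for AP2, 15.0 and 11.7 for TOE3, 2.65 and 2.45 for SMZ and 3.17 and 2.58 for SNZ. All 5 miR172 genes are listed at 0 in all 6 libraries, and mature microRNA was not measured. Between seedling and root the relatives went both ways: SNZ and TOE3 were higher in seedling, AP2 and SMZ higher in root, and TOE1 and TOE2 were not called. SNZ was at 59.9 and 62.4 RPKM in the seedlings of Col-0 and Can-0 but at 0.142 and 0.140 in their roots.

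TEM2 (RAV2), at chr1:25880155-25882222 on the plus strand, was the most uneven of the 9 genes between accessions. It had 62.5 RPKM in Col-0 seedling, 19.1 in root and 0.288 in bud, and in Can-0 11.5, 11.7 and 0.216. Seedling was well above root in Col-0, while in Can-0 both were alike. Seedling minus root was 0.82 (SE 0.57, limma adjusted p 0.275); it was 1.80 (limma adjusted p 0.00926) without the Can-0 seedling and -0.17 (limma adjusted p 0.688) without the Col-0 seedling.

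Its closest relatives kept more transcript in the buds. TEM1, 76.1% identical over 1083 bases, had 62.0, 18.7 and 8.79 RPKM in Col-0 and 31.3, 10.7 and 6.46 in Can-0. RAV1 had 69.8, 19.8 and 11.4 RPKM in Col-0 and 38.2, 10.3 and 11.7 in Can-0. In Col-0 these 3 genes were thus alike in seedling and in root and apart in bud. EDF3 was at most 0.363 RPKM in bud, like TEM2, and was higher in root, with 22.9 and 32.4 RPKM against 2.395 and 5.59 in seedling. FT had 0.517 RPKM in Col-0 seedling, 0.0516 in root and 7.88 in bud, and in Can-0 0, 0 and 6.03.

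**Figure D3:**
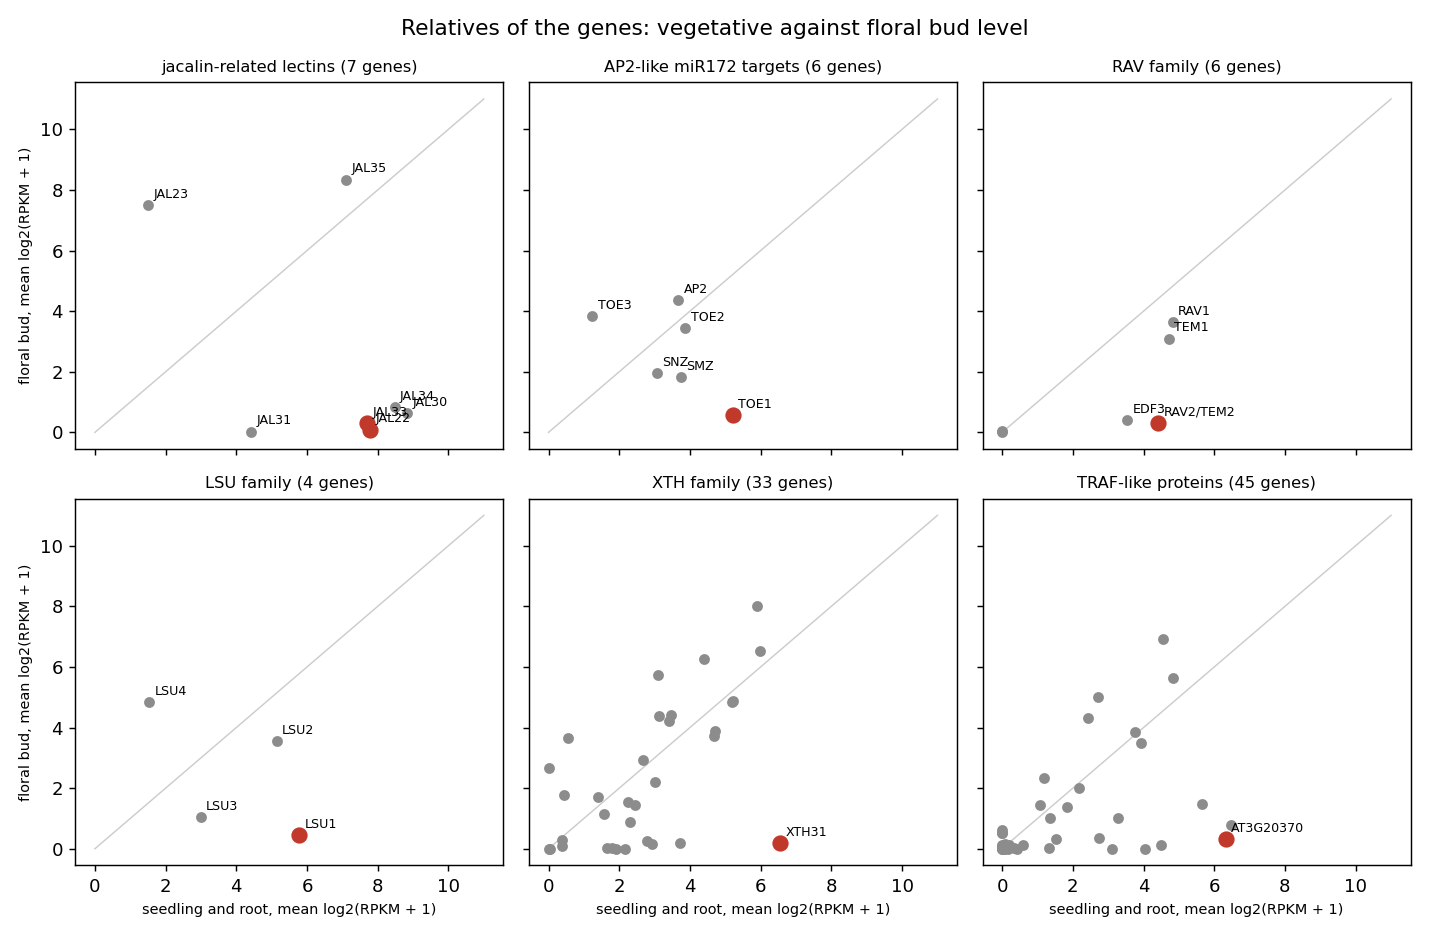
Mean log2(RPKM + 1) over the 2 floral buds against the mean over the 4 seedling and root libraries, for 6 families that hold some of the 9 genes. Red points are among the 9 and the line marks equal levels. JAL23, LSU4 and TOE3 lie above the line while JAL22, JAL33, LSU1 and TOE1 of the same families lie at the bottom right, where the selection placed them.

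XTH31, at chr3:16446935-16448844 on the minus strand, is a xyloglucan endotransglucosylase/hydrolase with strong hydrolase activity. It had 45.0 RPKM in Col-0 seedling, 159 in root and 0.0344 in bud, and in Can-0 95.5, 107 and 0.249. The buds held 1 and 7 reads, against 1296 to 4583 elsewhere, and the lowest vegetative value was 181-fold above the higher bud value. Root was above seedling in both accessions, by a wide margin in Col-0 and a narrow one in Can-0. Both roots were above both seedlings, as in 52.7% of all genes tested. Seedling minus root was -0.98 (SE 0.40, limma adjusted p 0.0915) and passed the threshold without the Can-0 seedling (-1.59, limma adjusted p 0.0173) or without the Can-0 root (-1.60, limma adjusted p 0.0201). It was -0.38 (limma adjusted p 0.384) without the Col-0 seedling and -0.37 (limma adjusted p 0.407) without the Col-0 root.

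Other XTH genes were found in buds. Of 33, 12 had at least 8 RPKM in both buds and 12 were under 1 in both, as were 9141 of all 28775 features. Of the 33, 7 had at least 8 RPKM in all 4 vegetative libraries, as did 7986 of all features. XTH31 was the only 1 of those 7 under 8 RPKM in both buds. XTH9 had 313 and 209.7 RPKM in bud, and XTH32, the closest in sequence at 71.9% identity over 526 bases, had 7.50, 6.79 and 3.43 RPKM in Col-0 and 9.13, 5.20 and 3.79 in Can-0. Of 29 XTH genes tested between seedling and root, limma called 7 higher in seedling and 12 in root, against 18.5% and 41.0% of all genes, with a median of -0.39 against -0.33, so the family was near the background.

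LSU1, at chr3:18374908-18375940 on the minus strand, is a small protein of the low-sulfur response. It had 32.1 RPKM in Col-0 seedling, 75.2 in root and 0.848 in bud, and in Can-0 22.1, 151 and 0. The 0 in the Can-0 bud allows up to 0.263 RPKM (3 reads), so the lowest vegetative value was at least 84.2-fold higher. Against the higher bud value, that of Col-0, it was 26.1-fold higher. The 10 reads in the Col-0 bud have an exact 95% interval of 0.407 to 1.56 RPKM, which crosses the bound of 1. Root was above seedling in both accessions, at -1.96 seedling minus root (SE 0.48, limma adjusted p 0.023). The call was lost with a pseudocount of 0.1 (limma adjusted p 0.161) and without the Can-0 seedling (-1.67, limma adjusted p 0.0879), and without the Can-0 root the difference was -1.11 (limma adjusted p 0.0229).

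The other 3 LSU genes were detected in bud. LSU2 had 8.82 and 13.0 RPKM there and 30.2 to 38.8 in seedling and root. LSU3, which lies 1760 bases from LSU1, had 2.14 and 0.367 RPKM in bud and 2.61 to 16.8 elsewhere. LSU4 had 33.2 and 22.9 RPKM in bud and at most 3.78 elsewhere, so LSU1 and LSU4 were high in opposite tissues.

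Other genes of sulfur limitation are given beside LSU1; of the 10 on this list tested between accessions, LSU1 included, limma called 0. Of all 11 on the list, which holds LSU1 and LSU2, 10 had a lower value in the Can-0 than in the Col-0 seedling (46.5% of all features above 0 in either seedling did), 8 a higher value in the Can-0 root (47.4% of all) and 8 a lower value in the Can-0 bud (44.8% of all). Each count compares 1 library with 1, and the buds of the accessions were in different sequencing runs. The list was drawn up after the selected genes were known. LSU1 itself is among the genes lower in seedling, higher in root and lower in bud, and the selection held its bud values under 1 RPKM. The counts are thus not independent of LSU1, and their difference from the shares of all features was not tested. SDI1, which represses glucosinolate synthesis when sulfur is short, had 15.6 and 8.19 RPKM in the seedlings of Col-0 and Can-0, 19.7 and 32.5 in the roots and 10.6 and 0.363 in the buds. APR3, a sulfate-reducing enzyme, had 153 and 321 RPKM in the roots and 42.8 and 27.5 in the buds. The median over the list, Can-0 minus Col-0, was -0.38 in seedling, 0.36 in root and -0.85 in bud, and the part of sulfur supply in the LSU1 values was not tested. Between seedling and root, limma called 5 of the 11 higher in root and 0 higher in seedling, against 41.0% and 18.5% of all genes. The 5 were LSU1, SHM7, SULTR1;1, SULTR1;2 and SULTR4;2.

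AT5G59540, at chr5:23995850-23997821 on the minus strand and encoding a 2-oxoglutarate and iron dependent oxygenase, was the 1 gene of the 9 called higher in seedling. It had 32.7 RPKM in Col-0 seedling, 17.2 in root and 0.248 in bud, and in Can-0 55.0, 9.70 and 0.543. Seedling was above root in both accessions, at 1.64 seedling minus root (SE 0.39, limma adjusted p 0.0204). The call was lost without the Can-0 seedling, where the difference was 1.15, and without the Can-0 root the difference was 0.99. AT5G59530, an oxygenase gene that overlaps it by 16 annotated bases and is 87.6% identical over 1105 bases, had 15.9 and 15.4 RPKM in root and at most 0.0666 elsewhere. In seedling AT5G59530 was near 0 where AT5G59540 was highest. Of 97 genes of this class, 41 were under 1 RPKM in both buds, 18 of them in all 6 libraries, and 29 had at least 8 RPKM in both buds. Of all 28775 features, 9141 were under 1 RPKM in both buds. Between seedling and root limma called 13 of the 75 tested for seedling and 38 for root, against 18.5% and 41.0% of all genes.

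AT1G68238, at chr1:25574381-25574835 on the plus strand, encodes an uncharacterized protein and has the least reads of the 9 genes. It had 18.6 RPKM in Col-0 seedling, 20.7 in root and 0.934 in bud, and in Can-0 9.91, 36.4 and 0.362. Its Col-0 bud value is the highest bud value of the 9 genes, and at 8 reads its exact 95% interval of 0.403 to 1.84 RPKM crosses the bound of 1. The lowest vegetative value was 10.6-fold above that bud value, the narrowest gap. Seedling and root were alike in Col-0 and apart in Can-0. Seedling minus root was -0.96 (SE 0.42, limma adjusted p 0.114), and it passed the threshold without the Col-0 root (-1.69, limma adjusted p 0.00962). It was -0.23 (limma adjusted p 0.495) without the Can-0 root and -0.47 (limma adjusted p 0.455) without the Can-0 seedling.

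Several genes came close to the bounds. A legume lectin, AT3G16530, had 6.86 RPKM in Col-0 root as its lowest vegetative value, the cytokinin oxidase CKX4 had 6.82 in Col-0 seedling, and MSRB6 had 6.51 in Col-0 root; all 3 were under 1 RPKM in both buds. AT1G17147, with a VQ motif, reached 1.13 RPKM in the Col-0 bud, and HIPL2 and AGF2 reached 1.21 and 1.22 in the Can-0 bud. The Col-0 libraries alone gave 31 genes and the Can-0 libraries alone 31, and the 9 genes are those in both.

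Whether the accessions differed over the vegetative libraries was tested in the 4 seedling and root libraries, with 1 residual degree of freedom. In this fit 0.0% of 19271 genes, none of the 9 among them, passed an adjusted p of 0.05 in limma, while 2149 had an unadjusted p under 0.05. In the fit over all 6 libraries 200 of 20830 genes were called, and 0 of the 9. The selection holds the bud values of the 9 under 1, so that 0 is not read as a result. In the fit on 4 libraries Can-0 minus Col-0 was -1.50 for TEM2 (limma p 0.0364, adjusted 0.416) and -0.62 for TOE1 (limma p 0.0119, adjusted 0.321). It was 1.03 for JAL33 (limma p 0.0414, adjusted 0.426). TEM2 and TOE1 were lower in Can-0 in both tissues, and JAL33, JAL22 and AT3G20370 were higher in both.

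Within a tissue each difference compares 2 libraries and has no test. In seedling 4 of the 9 genes differed by at least 1 on the log2(RPKM + 1) scale, as did 9.01% of the 17901 genes with at least 1 RPKM in either seedling: TEM2 at -2.34, JAL33 at 1.62, AT3G20370 at 1.25 and XTH31 at 1.07. In root 0 of the 9 did, as did 7.43% of 18973 genes. The median over the 9 genes was 0.74 in seedling and 0.17 in root, against 0.04 and -0.02 over all these genes. The wider sets reach down to 1 RPKM while the 9 genes had at least 8, so levels are not matched. TEM1 and RAV1 were also lower in the Can-0 seedling, at 31.3 against 62.0 RPKM and 38.2 against 69.8. Of 11 clock genes 7 were higher and 4 lower in the Can-0 seedling: CCA1 and LHY, which peak at dawn, had 16.7 and 4.10 RPKM in Col-0 and 4.62 and 1.80 in Can-0, while TOC1 and ELF4, which peak at dusk, had 13.5 and 7.35 in Col-0 and 45.8 and 99.2 in Can-0. The hour of harvest is not given in the sources used here, and its part in the TEM2 difference was not tested.

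For 4 of the 9 genes the accessions differed in opposite directions in seedling and root, by at least 0.5 in each. The same held for 1.78% of 16642 genes with at least 1 RPKM in either accession in both tissues. Those genes reach down to 1 RPKM and the 9 had at least 8, so the shares are not matched in level. XTH31 (1.07 in seedling, -0.56 in root) and AT5G59540 (0.74 and -0.77) were higher in the Can-0 seedling and lower in the Can-0 root. LSU1 (-0.52 and 0.99) and AT1G68238 (-0.85 and 0.79) were lower in the Can-0 seedling and higher in the Can-0 root. These 4 differences had no test. Whether reads with Can-0 sequence differences mapped as well as Col-0 reads is not given in the sources used here.

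**Figure D4:**
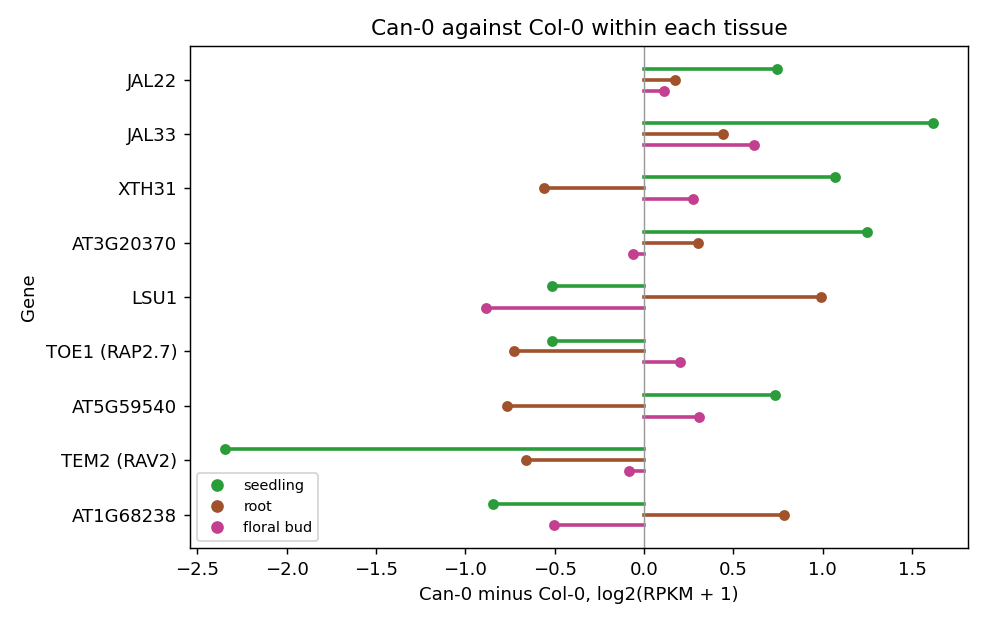
Can-0 minus Col-0 on the log2(RPKM + 1) scale for each gene within seedling, root and floral bud, 1 library against 1. The buds of the accessions were in different sequencing runs. TEM2 has the lowest seedling value, -2.34, and XTH31, LSU1, AT5G59540 and AT1G68238 have seedling and root values on opposite sides of 0.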

How the data were processed

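The authors deposited RPKM, which the file headers name as the unit. The submitters' processing notes list builds TAIR 9 and TAIR 10 and give neither a role. Aligner, read counting, multiply matching reads and strand use: not given in the sources used here. The members and gene lists were chosen with earlier results of these data known.

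Depth was estimated from the step that 1 read makes in low values. The gene model length of each of the 9 genes was the one at which all its values up to 3000 reads came within 0.01 of whole reads. Poisson intervals (95%) and the limit of 3 reads at a count of 0 cover counting error only.

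Differences are on log2(RPKM + 1), which understates the change of low genes, and were tested two-sided with limma 3.58.1 in R 4.3.3 with an empirical Bayes trend and Benjamini-Hochberg adjustment over genes reaching 1 RPKM in 2 or more libraries. The spread was estimated between accessions or between tissues, since a group held 1 library. Both limma fits were tested on simulated data. All 9 genes are named. Sequences, coordinates and neighbours come from RefSeq TAIR10.1, which 28009 of 28775 identifiers matched; the coordinates do not come from the authors' files. Transcripts were compared with BLAST+ 2.17.0. Other pseudocounts, filters, scalings, selection bounds and sets of libraries were tried as alternatives.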

Additional observations from a re-analysis of the deposited data

Results flagged for a closer look

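In 4 of the 9 genes the Can-0 minus Col-0 difference had opposite signs in seedling and root. The seedling difference minus the root difference, on the log2(RPKM + 1) scale, was 1.63 for XTH31, 1.51 for AT5G59540, -1.63 for AT1G68238 and -1.51 for LSU1. Each rests on 1 library per accession and tissue, and the difference was not tested.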

How the results depend on the processing

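The number of genes selected follows the bounds: 28 with a vegetative minimum of 4 RPKM, 5 with 16, 4 with a bud maximum of 0.5 RPKM, 21 with 2, and 31 each from Col-0 or Can-0 alone. Between seedling and root, leaving out 1 library gave 8068 to 11258 calls over all genes (12398 with all 6) and 5 to 6 of the 9 genes. The 8068 were without the Col-0 root, and TEM2 (0.82 with all 6) ranged from -0.17 without the Col-0 seedling to 1.80 without the Can-0 seedling. Between accessions 200 genes were called with all 6 libraries against 0. Of the near-zero accession differences, AT1G68238 turned to 0.0042 and AT5G59540 to 0.027 with a pseudocount of 4, and with all 6 libraries AT5G59540 turned to 0.091 and LSU1 to -0.14. Of 117 single-gene checks between seedling and root 109 kept their direction and side of the threshold, and of 117 between accessions 105 kept theirs. The cause of these changes was not tested. Some checks could not move a difference, so the counts overstate stability. Other filters and the fits without 1 bud returned the difference of the main fit. So did the seedling and root libraries alone between seedling and root. Between accessions, leaving out either library of a tissue gave the same difference. The accession fit on 4 libraries has no residual degree of freedom left without 1 of them. The accession fit on 6 libraries, without each in turn (added after seeing the data), called 0 to 120 genes, with 75 and 64 without the Col-0 and Can-0 seedling, 91 and 120 without the Col-0 and Can-0 root and 0 without either bud, and 0 of the 9 each time. Over these fits AT1G68238 ranged from -0.68 to 0.14, XTH31 from -0.14 to 0.67, LSU1 from -0.70 to 0.24 and AT5G59540 from -0.23 to 0.52. Where both buds were in the fit, the selection bounded the bud values of the 9 genes, so 0 of the 9 is not read as a result. No paired analysis was possible because each group holds replicate 1 only; the accession term already blocks seedling against root by accession. At 0 to 27 reads, order among bud values is limited by counting.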
